A study of Mus musculus with 12 samples.

Results

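The genes of MHC class I presentation were compared across salivary tumors of 3 p53 genotypes. Class I molecules are surface proteins that show peptides from inside a cell to CD8 T cells. A class I molecule is made of a heavy chain, here H2-K1, H2-D1 or the nonclassical H2-T23, and the light chain beta-2 microglobulin, the product of B2m. Peptides are cut by the immunoproteasome, whose inducible catalytic subunits are Psmb8, Psmb9 and Psmb10, carried into the endoplasmic reticulum by the transporter Tap1/Tap2, and loaded with the help of tapasin, the product of Tapbp. Interferons are known to induce most of these genes, and tumors of many tissues are known to lower them. Of the 10 genes, 9 were measured by 25 probe sets whose annotation names that gene alone, out of 22626 probe sets tested. A probe set is a group of short oligonucleotides on the array that together read 1 transcript. B2m had 2 such probe sets, H2-K1 4, H2-D1 9, Tap1 4, Tapbp 2, and Tap2, Psmb8, Psmb9 and Psmb10 1 each. The 2 probe sets of H2-T23 are shared with a pseudogene, H2-T-ps, so no value was given to H2-T23. Probe sets shared by H2-K1 or H2-D1 with other class I genes were left out for the same reason.

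All 12 tumors arose spontaneously in salivary glands of mice that carry an Hras oncogene under the MMTV promoter, which is active in salivary and mammary epithelium. The p53 gene was wild type in 4 tumors (WT1 to WT4), deleted on both alleles in 4 (KO1 to KO4) and homozygous for the point mutation R172H in 4 (MT1 to MT4). The mice were of mixed BALB/c and C57BL/6 descent, strains whose MHC regions, named H-2 in the mouse, carry different alleles. Per the paper, the WT and KO mice had been kept on this mixed background for many generations. The R172H allele came from C57BL/6 mice that were crossed to mice of that background, and the resulting colony was then interbred. In comparisons with MT tumors this difference in descent cannot be told apart from the p53 genotype. The age of the animals is not given in the labels, and whether the tumors of a genotype grew in separate mice is not stated in the sources used here. The p-values of genotype comparisons set a difference only against the variation among these tumors. Values are log2 expression levels from RMA, which removes background, gives all arrays 1 common distribution and reduces each probe set to a single number. Each probe set was fitted with limma on all 12 tumors, with the Benjamini-Hochberg adjustment taken over the 22626 probe sets and 0.05 as the threshold. Because class I heavy chains resemble one another, a probe set whose name ends in x_at may also read related transcripts, and its values are uncertain to that extent. The p53 transcript itself was not analysed here. In RNA of whole tumors, fewer cells of a type and less RNA per cell cannot be told apart.

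Epithelial markers were high in every tumor, with Epcam between 11.79 and 13.04, and the salivary secretory gene Bpifa2 lay between 11.08 and 13.85. WT1 stood apart by its lymphocyte markers. Its mean level over 6 B and plasma cell genes was 10.28, against 5.83 to 6.16 in the other tumors, and its mean over 13 T and NK cell genes was 6.85, against 5.39 to 5.82. The poly-A control probe sets, which read bacterial transcripts that can be added before labeling, averaged 10.38 to 10.56 in 3 MT tumors (MT1 to MT3) but only 3.98 to 4.23 in MT4 and in every WT and KO tumor. Comparisons of MT tumors are therefore also given with this level as a block.

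Class I genes are known to be controlled by short elements just before the transcription start, and these are shown for the genes on which the results turn. Each sequence is from RefSeq, build GRCm38.p6, which is the C57BL/6J genome, and is written 5′ to 3′ on the strand of the gene. For B2m, H2-K1 and H2-D1 it is the 250 bases before an annotated start, at chr2:122147437-122147686 (+), chr17:34000348-34000597 (-) and chr17:35262844-35263093 (+). For Tap1 and Psmb9, which are transcribed away from each other from starts 226 bases apart, it is the stretch between the starts on the Tap1 strand, at chr17:34187331-34187555 (+). Capitals mark matches, on either strand, to both spaced forms of the interferon element, GAAANNGAA and GAANNGAAA, to the NF-kB site GGGATTCCC, to the CRE half-site TGACG and to the inverted CCAAT box ATTGG.
B2m: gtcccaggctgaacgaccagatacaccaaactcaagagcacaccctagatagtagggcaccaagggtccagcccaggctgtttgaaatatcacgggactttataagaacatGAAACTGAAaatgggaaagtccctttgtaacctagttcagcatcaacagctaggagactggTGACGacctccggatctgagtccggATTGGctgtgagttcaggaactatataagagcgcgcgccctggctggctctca
H2-K1: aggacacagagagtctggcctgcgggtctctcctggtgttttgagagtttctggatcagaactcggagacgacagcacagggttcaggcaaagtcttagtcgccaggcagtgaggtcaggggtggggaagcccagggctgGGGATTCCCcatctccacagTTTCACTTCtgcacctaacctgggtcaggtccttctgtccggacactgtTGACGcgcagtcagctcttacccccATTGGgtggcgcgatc
H2-D1: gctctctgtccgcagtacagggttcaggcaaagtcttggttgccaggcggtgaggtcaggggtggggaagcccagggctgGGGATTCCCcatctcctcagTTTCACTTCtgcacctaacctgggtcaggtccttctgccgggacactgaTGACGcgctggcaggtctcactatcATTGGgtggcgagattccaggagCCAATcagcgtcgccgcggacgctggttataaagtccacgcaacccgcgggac
Psmb9 to Tap1: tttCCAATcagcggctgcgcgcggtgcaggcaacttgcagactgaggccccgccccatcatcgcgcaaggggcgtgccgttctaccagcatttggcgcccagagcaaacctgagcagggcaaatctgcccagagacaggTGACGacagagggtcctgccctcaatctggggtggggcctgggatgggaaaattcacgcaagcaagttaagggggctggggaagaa

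A match is a description of letters and not evidence of a bound site. In the 250 bases before the start, an interferon element in either form was found in 4 of the 10 genes (B2m, H2-K1, H2-D1 and H2-T23) and in 12.5% of all 32851 RefSeq promoters. The NF-kB site was found in H2-K1 and H2-D1 and in 0.301% of all promoters. In B2m, H2-K1 and H2-D1 the CRE half-site and the inverted CCAAT box stood in the same order with 20 bases between them, an arrangement picked after the sequences were seen, which 30 of all promoters (0.0913%) held. The GAS element TTCNNNGAA was found only before Psmb8 among the 10 genes and in 7.02% of all promoters. No p53 half-site consensus was found before any of the 10 genes, against 7.13% of all promoters, which says only that these letters are not in this window. The windows of H2-K1 and H2-D1 were identical at 166 of 190 aligned bases (87.4%).

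B2m, which every class I molecule needs, was at a uniform level in WT tumors and at very different levels in KO and MT tumors. At probe set 1449289_a_at the log2 level was 12.72, 13.06, 12.71 and 12.59 in WT1 to WT4. It was 11.73, 12.04, 10.56 and 13.02 in KO1 to KO4 and 11.83, 12.42, 10.36 and 13.10 in MT1 to MT4. KO3 and MT3 were lowest, and KO4 and MT4 were as high as the WT tumors, so the genotypes overlapped. The range over 4 tumors was 0.47 in WT, 2.46 in KO and 2.74 in MT. The WT mean was 0.93 (SE 0.57) above the KO mean, a fold of 1.91, with an adjusted p of 0.348 by limma. The other B2m probe set, 1452428_a_at, gave 1.03 (SE 0.53, adjusted p = 0.262). Neither probe set passed the test in any comparison.

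**Figure D1:**
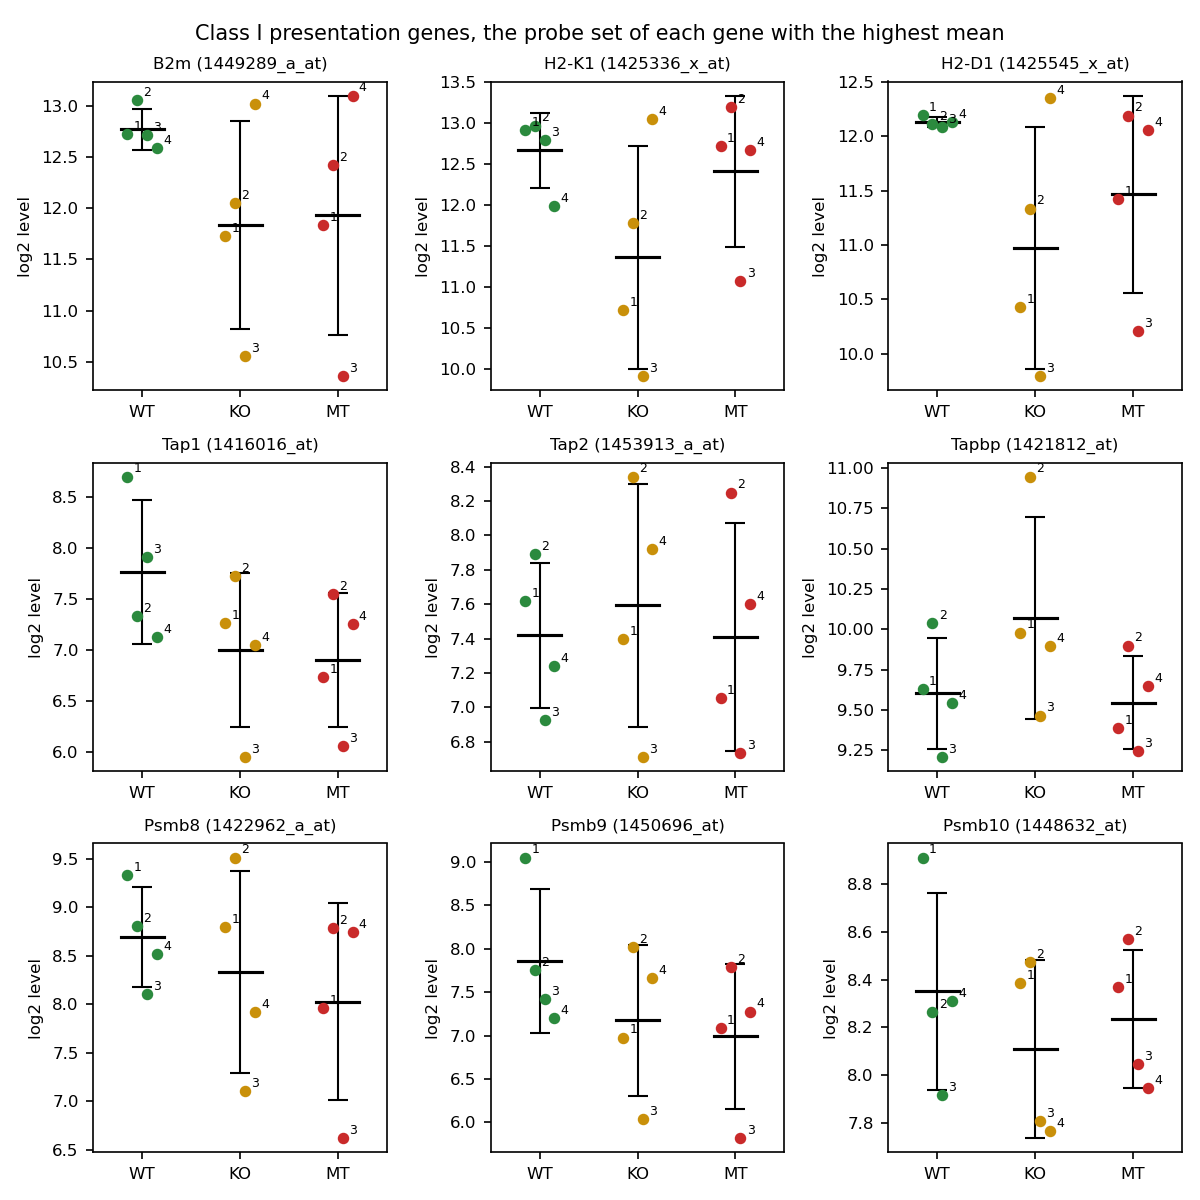
Log2 level (y axis) of the 9 measured genes in WT, KO and MT tumors, with 1 panel per gene, 1 numbered point per tumor, bars for the mean and whiskers for the SD (n = 4). For B2m and H2-D1 the WT tumors lie close together while KO and MT tumors range from WT levels down to KO3 and MT3.

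At the brightest probe sets of the classical heavy chains the KO tumors stood in the same order as for B2m, from KO3, the lowest, through KO1 and KO2 to KO4, while the order of MT and WT tumors differed between the genes. For H2-D1 at probe set 1425545_x_at, WT1 to WT4 were at 12.20, 12.11, 12.09 and 12.13, a range of 0.11. KO1 to KO4 were at 10.43, 11.33, 9.79 and 12.35, a range of 2.56, and MT1 to MT4 were at 11.42, 12.19, 10.21 and 12.06, a range of 1.98. KO4 lay above all WT tumors, and MT2 lay within their range. The difference between WT and KO was 1.15 (SE 0.53, adjusted p = 0.208, limma), with a 95% interval from 0.00 to 2.31. For H2-K1 at probe set 1425336_x_at, WT1 to WT4 were at 12.92, 12.97, 12.79 and 11.99. KO1 to KO4 were at 10.72, 11.78, 9.91 and 13.05, and MT1 to MT4 at 12.72, 13.19, 11.08 and 12.67. MT2 and KO4 were the highest of all 12 tumors here and KO3 the lowest, and the 3 genotypes overlapped. WT exceeded KO by 1.30 (SE 0.62, adjusted p = 0.229).

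Leaving aside 3 H2-D1 probe sets described below, KO3 was the lowest KO tumor at 10 of 12 probe sets of B2m, H2-K1 and H2-D1, and KO1 at the other 2. KO4 was the highest KO tumor at all 12. MT3 was the lowest MT tumor at 11 of the 12. Within-genotype spread over these 12 had a median SD of 0.29 in WT, 1.10 in KO and 0.95 in MT. Over all 22626 probe sets the medians were 0.22, 0.25 and 0.23. The SD was larger in KO than in WT at 11 of the 12 (91.7%), against 55.0% of all probe sets, and this is a description with no test. The 3 probe sets left out are those where WT4 lay far above all others, so leaving them out lowers the WT spread. With them, over all 25 members, the SD was larger in KO at 19 (76.0%). The median SDs were then 0.42 in WT, 0.75 in KO and 0.66 in MT.

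**Figure D2:**
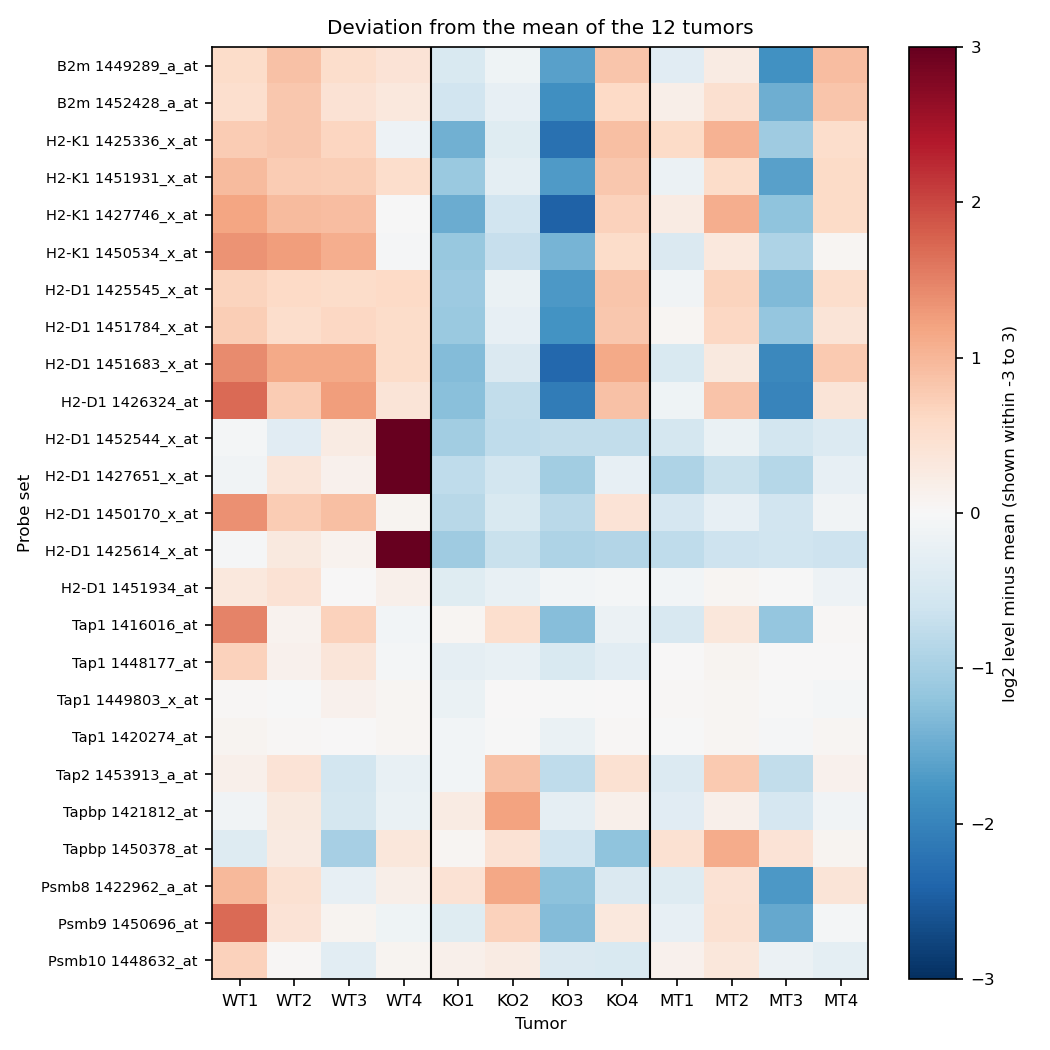
Deviation of each of the 25 probe sets (y axis) from its mean over the 12 tumors (x axis), in log2 units, with red above and blue below the mean and colors limited to 3 on either side. KO3 and MT3 are below the mean at most probe sets, and WT4 is far above it at 3 H2-D1 probe sets.

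Over all members, 23 of 25 probe sets had a higher mean in WT than in KO tumors, with a median difference of 1.03, against 52.6% and a median of 0.02 over all probe sets. Past the threshold in WT against KO were 2 of 25 probe sets, both higher in WT, where 4.57% of all probe sets passed in either direction and 2.64% were higher in WT. At an unadjusted p under 0.05 there were 12 of 25 (48.0%), against 23.9% of all probe sets. Of these 12, 11 were among the 13 probe sets of H2-K1 and H2-D1, 1 among the 10 of the supply genes and 0 among the 2 of B2m. Probe sets of 1 gene, and those that may read related transcripts, are not independent, so these counts do not describe 25 separate genes. The values of WT and KO tumors did not overlap, with WT higher, at 5 of 25 (20.0%), against 8.37% of all. These 5 were H2-D1 1452544_x_at, 1427651_x_at, 1425614_x_at and 1451934_at, and Tap1 1448177_at.

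The called probe sets were 1 of H2-D1 and 1 of Tap1. At H2-D1 1450170_x_at the levels were 7.47, 6.87, 7.02 and 6.20 in WT1 to WT4 and 5.28, 5.65, 5.30 and 6.53 in KO1 to KO4. KO4 lay above WT4, so the groups overlapped at that pair. H2-D1 at this probe set was 1.20 (SE 0.30) higher in WT than in KO tumors, a fold of 2.30, with an adjusted p of 0.0483 by limma. At Tap1 1448177_at WT1 to WT4 were at 6.41, 5.84, 6.06 and 5.66 and KO1 to KO4 at 5.45, 5.49, 5.24 and 5.38, with no overlap. Tap1 at this probe set was 0.60 (SE 0.14) higher in WT, a fold of 1.52 (adjusted p = 0.0407). Both calls were near the threshold: the first was kept without 2 and the second without 3 of the 12 tumors, each left out in turn, with adjusted p-values from 0.0223 to 0.120 and from 0.0177 to 0.102. Both probe sets were also among the 8 of 25 that did not lie above the array median in at least 4 tumors.

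Several other heavy chain probe sets had larger differences with larger errors and did not pass. H2-K1 1450534_x_at was at 9.90, 9.81, 9.63 and 8.51 in WT1 to WT4, at 7.42, 7.85, 7.16 and 9.09 in KO1 to KO4 and at 8.11, 8.87, 7.62 and 8.61 in MT1 to MT4. WT exceeded KO by 1.58 (SE 0.44, adjusted p = 0.0656, limma). KO4 was the only KO tumor within the WT range, and MT2 and MT4 were the MT tumors within it. H2-D1 1426324_at gave 1.83 (SE 0.68, adjusted p = 0.130) and H2-D1 1451683_x_at 1.80 (SE 0.70, adjusted p = 0.148). Differences at H2-K1 1427746_x_at and 1451931_x_at were 1.71 and 1.32, and that at H2-D1 1451784_x_at was 1.20, with adjusted p-values from 0.131 to 0.176. H2-D1 1451934_at differed by 0.41 (SE 0.12, adjusted p = 0.0685).

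**Figure D3:**
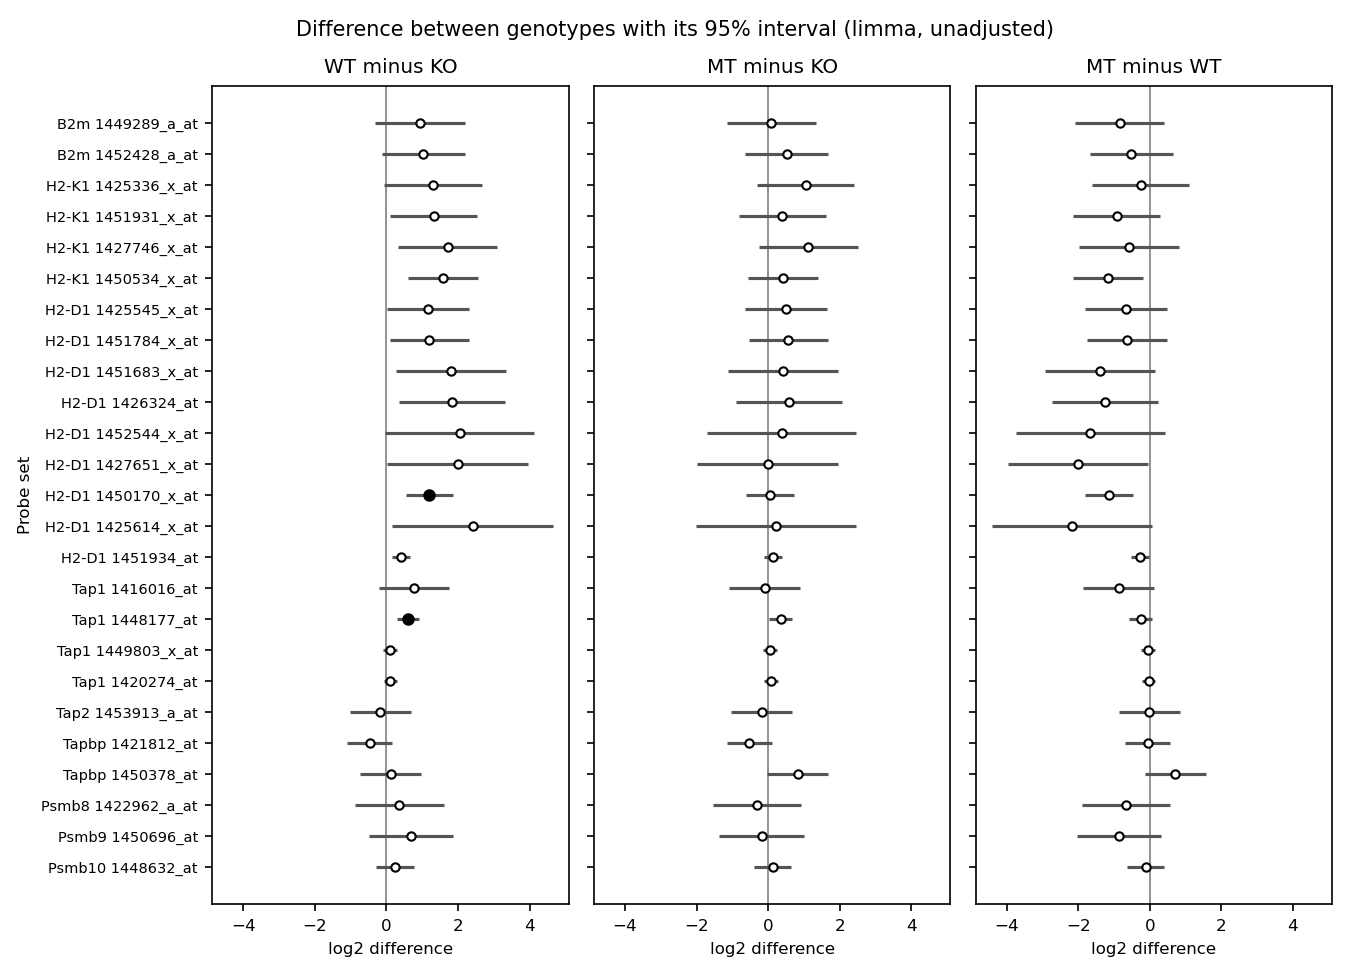
Log2 difference between genotypes (x axis) for the 25 probe sets (y axis), WT minus KO, MT minus KO and MT minus WT from left to right, with lines for the 95% interval of limma. Filled points, H2-D1 1450170_x_at and Tap1 1448177_at in WT minus KO, passed an adjusted p of 0.05, and open points did not.

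WT4 stood apart at 3 H2-D1 probe sets. At 1425614_x_at WT4 was at 11.77, while the other WT tumors were at 6.02, 6.34 and 6.15, KO tumors at 4.98 to 5.38 and MT tumors at 5.29 to 5.45. At 1452544_x_at WT4 was at 11.63 and the other 11 tumors between 5.47 and 6.75. At 1427651_x_at WT4 was at 11.21 and the others between 5.20 and 6.62. The gaps of 5.43, 4.88 and 4.59 above the next tumor were the 3 largest of WT4 over all 22626 probe sets. At the other probe sets of the chains WT4 was not high. It was the lowest WT tumor at 9 of 12, among them H2-K1 1427746_x_at, where it was at 10.64 and WT1 to WT3 at 11.57 to 11.82. At H2-D1 1425545_x_at it was level with the other WT tumors.

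Leaving out WT4 changed these differences. The WT minus KO difference at 1425614_x_at went from 2.40 (SE 1.02, adjusted p = 0.180, limma) to 1.00 (adjusted p = 0.00563). That at 1452544_x_at went from 2.05 (adjusted p = 0.215) to 0.76 (adjusted p = 0.0242), and that at 1427651_x_at from 1.99 (adjusted p = 0.204) to 0.78 (adjusted p = 0.0634). H2-K1 1450534_x_at then passed too, at 1.90 (adjusted p = 0.0315), so that 5 of 25 probe sets were called in place of 2. Calls also rose over the whole array without WT4, where 1360 of all probe sets passed in place of 1035. H2-Ea, a class II gene known to be silent in the C57BL/6 haplotype and active in that of BALB/c, was at 6.73 in WT4 and at 4.38 to 5.10 in the other tumors at probe set 1422892_s_at, which was chosen after its values were seen. At H2-Ea 1422891_at, which was 0.66 higher in WT than in KO (SE 0.14, adjusted p = 0.0280), WT4 was at 8.48, within the 7.58 to 8.82 of the others. At the remaining H2-Ea probe set, 1426202_at, WT4 was the lowest tumor, at 3.91 against 3.93 to 4.10 in the others. A probe set shared by H2-Q5 and H2-K1, 1451593_at, was at 7.99 in WT4 and at 5.99 to 6.82 elsewhere. The H-2 haplotype of each tumor is not given in the sources used here, and its part in these values was not tested.

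**Figure D4:**
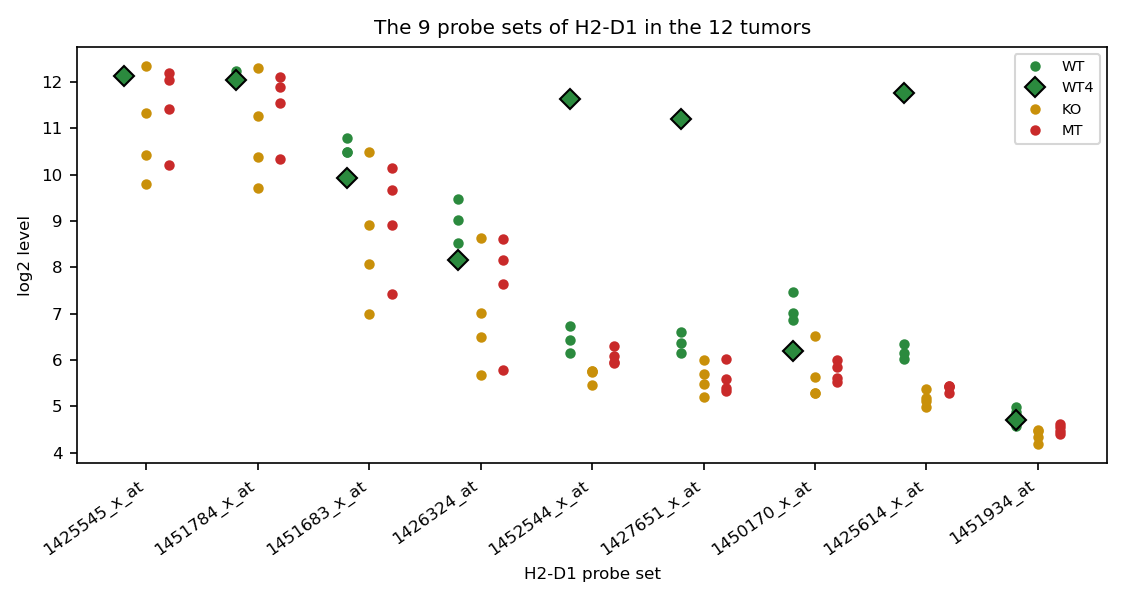
Log2 level (y axis) of the 9 H2-D1 probe sets (x axis, ordered by mean) in each tumor, with WT, KO and MT tumors as points side by side and WT4 as a diamond. WT4 lies near 11 to 12 at 3 probe sets where the other 11 tumors lie below 7, and near or below the other WT tumors at most of the others.

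The remaining genes supply and load the peptides. For Tap1, 1 chain of the peptide transporter, probe set 1416016_at was at 8.70, 7.33, 7.91 and 7.13 in WT1 to WT4, at 7.27, 7.72, 5.95 and 7.05 in KO1 to KO4 and at 6.73, 7.55, 6.06 and 7.26 in MT1 to MT4. WT1 was highest and KO3 lowest. The difference between WT and KO was 0.77 (SE 0.45, adjusted p = 0.323, limma). The remaining Tap1 probe sets, 1449803_x_at and 1420274_at, stayed between 3.81 and 4.67 in every tumor and differed by 0.10 and 0.11.

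Psmb9, an immunoproteasome subunit, was at 9.05, 7.75, 7.42 and 7.20 in WT1 to WT4, at 6.98, 8.02, 6.04 and 7.66 in KO1 to KO4 and at 7.09, 7.79, 5.82 and 7.28 in MT1 to MT4. WT1 was highest, and MT3 and KO3 were lowest, as for Tap1, its neighbor across the shared promoter. The WT minus KO difference in Psmb9 was 0.68 (SE 0.54, adjusted p = 0.473, limma). Psmb8, another immunoproteasome subunit, was at 9.34, 8.81, 8.11 and 8.52 in WT, at 8.79, 9.51, 7.11 and 7.92 in KO and at 7.96, 8.79, 6.62 and 8.75 in MT tumors, in the order of their numbers. KO2 was the highest of the 12 tumors and MT3 the lowest. Psmb8 differed by 0.36 (SE 0.56, adjusted p = 0.739) between WT and KO. Psmb10, the remaining subunit, ranged from 7.92 to 8.91 in WT, from 7.77 to 8.47 in KO and from 7.94 to 8.57 in MT tumors, and differed by 0.24 (SE 0.24, adjusted p = 0.572).

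Tap2, the other chain of the transporter, was at 7.62, 7.89, 6.93 and 7.24 in WT1 to WT4, at 7.40, 8.34, 6.71 and 7.92 in KO1 to KO4 and at 7.05, 8.25, 6.73 and 7.60 in MT1 to MT4. The genotypes covered nearly the same range, and the WT minus KO difference was -0.17 with a 95% interval from -1.03 to 0.68 (adjusted p = 0.824, limma). Tapbp at 1421812_at was at 9.63, 10.04, 9.21 and 9.54 in WT, at 9.98, 10.95, 9.47 and 9.90 in KO and at 9.39, 9.90, 9.25 and 9.65 in MT tumors. Here KO2 was the highest tumor, and WT minus KO came to -0.47 (SE 0.29, adjusted p = 0.351). Its other probe set, 1450378_at, gave 0.12 (SE 0.39, adjusted p = 0.877). Over the 10 probe sets of these 6 genes, KO2 was the highest KO tumor at 9 and KO4 at 1, whereas KO4 was the highest at all 12 probe sets of the chains counted above. At the low end the supply genes were like the chains, with KO3 the lowest KO tumor and MT3 the lowest MT tumor at 7 of 10 each. The median WT minus KO difference was 0.18 for peptide supply, 1.58 for the 13 heavy chain probe sets and 0.98 for the 2 of B2m, and these medians were not tested against each other.

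At most probe sets the MT mean lay above the KO mean (19 of 25) and below the WT mean (24 of 25), and no difference passed the test. In MT against KO, 0 of 25 probe sets passed in limma, where 0.00884% of all did, and 1 of 25 had an unadjusted p under 0.05, against 9.58% of all. That 1 was Tap1 1448177_at, which was at 5.73, 5.78, 5.72 and 5.73 in MT1 to MT4, above all KO tumors and 0.35 (SE 0.14, adjusted p = 0.466) higher on average. MT values lay above KO values without overlap at 2 of 25, against 2.88% of all probe sets. With the poly-A control level as a block, a value that rests on MT4 alone among MT tumors, the median difference of the members moved from 0.23 to 0.39 and 0 probe sets passed. The ordinary t statistic of the methods called 0 as well.

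In MT against WT, 0 of 25 passed in limma, where 0.367% of all did, and 4 of 25 had an unadjusted p under 0.05, against 19.4% of all. The mean was lower in MT at 24 of 25 probe sets, with a median difference of -0.66 against -0.01 over all probe sets. The closest to the threshold was H2-D1 1450170_x_at, at 5.61, 5.86 and 5.54 in MT1 to MT3 and 6.004 in MT4, all below the WT tumors, with a difference of -1.14 (SE 0.30, adjusted p = 0.102). Without WT4 it passed, at -1.37 (adjusted p = 0.0411), as did H2-D1 1425614_x_at, at -0.77 (adjusted p = 0.0228). Calls over the whole array rose as well without WT4, with 578 of all probe sets in place of 83. MT values lay below WT values without overlap at 3 of 25, all of H2-D1, against 6.44% of all probe sets. With the poly-A control level as a block the median difference was -0.22, and the MT mean was above the WT mean at 8 of 25 in place of 1. The t statistic of the methods called 0. Over the 3 genotypes together the moderated F test of limma called 0 of 25, where 2.34% of all passed, with 4 of 25 at an unadjusted p under 0.05 against 22.3% of all, and a 3-group SAM at an FDR of 1% called 0. The 3 comparisons share tumors and are not independent of each other.

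Across the 12 tumors the chains moved together. Over 72 relations computed (36 pairs of the 9 genes, each at its brightest probe set by mean, and each gene against the mean level of 4 gene lists), Benjamini-Hochberg values were taken over all 72. H2-K1 and H2-D1 were correlated with Pearson's r = 0.934 (permutation p = 0.00014, adjusted p = 0.00252) and Spearman's rho = 0.874 (permutation p = 0.00042, adjusted p = 0.0302), and r was 0.841 without KO3 and KO1, the tumors farthest from the median. Their probe sets may read each other's transcripts. B2m and H2-D1, which share no such likeness, gave r = 0.934 (permutation p = 6e-05, adjusted p = 0.00252) and rho = 0.727 (permutation p = 0.00926, adjusted p = 0.0741), with r = 0.84 without MT3 and KO3. B2m and H2-K1 were the weakest pair, with r = 0.827 (permutation p = 0.00232, adjusted p = 0.0209). Their rho was 0.671 (permutation p = 0.0197, adjusted p = 0.0836), and r was 0.651 without MT3 and KO3.

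Tap1 and Psmb9, which share a promoter, gave r = 0.925 (permutation p = 0.00012, adjusted p = 0.00252) and rho = 0.811 (permutation p = 0.00212, adjusted p = 0.0337), with r = 0.823 without WT1 and KO3. Tap2 and Tapbp gave r = 0.822 (permutation p = 0.00014, adjusted p = 0.00252) and rho = 0.839 (permutation p = 0.00113, adjusted p = 0.0337), with r = 0.847 without KO2 and KO3. Relations of B2m with supply genes rested on the lowest tumors. B2m and Psmb8 gave r = 0.682 (permutation p = 0.0152, adjusted p = 0.0476) and rho = 0.378 (permutation p = 0.227, adjusted p = 0.364), and r was -0.107 without MT3 and KO3. For B2m with Tap1 r went from 0.709 to 0.175 and with Psmb9 from 0.76 to 0.285 without the same tumors. H2-D1 behaved likewise without KO3 and MT3. Its r went from 0.685 to 0.216 with Tap1, from 0.759 to 0.404 with Psmb9 and from 0.569 to -0.188 with Psmb8. For H2-K1 with Psmb9 r went from 0.707 to 0.618 without KO3 and KO1, a different pair of tumors that leaves MT3 in. In all, 24 of the 72 had an adjusted p under 0.05 for r and 5 for rho.

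The members were also set against the interferon response. The 18 measured genes of the interferon list had a mean level of 8.83 in KO2, 7.57 in KO1, 7.36 in WT1 and 7.21 in KO4, and of 6.07 to 6.95 in the other tumors. KO2 was high in Gbp3 (10.24, others at most 8.16), Igtp (10.16, others at most 8.52) and Ifit1 (8.44, others at most 6.62), which were chosen after their values were seen. Tapbp was correlated with the list mean with r = 0.879 (permutation p = 0.0013, adjusted p = 0.0134) and rho = 0.755 (permutation p = 0.00643, adjusted p = 0.0741), with r = 0.598 without KO2 and KO1. Tap2 gave r = 0.701 (permutation p = 0.00688, adjusted p = 0.0354) and rho = 0.699 (permutation p = 0.0141, adjusted p = 0.0743), with r = 0.698 without the same tumors. Psmb8 gave r = 0.675 (permutation p = 0.0162, adjusted p = 0.0485) and rho = 0.636 (permutation p = 0.0303, adjusted p = 0.109), with r = 0.591 without them. H2-D1 gave r = 0.0658 (permutation p = 0.844, adjusted p = 0.88) and rho = 0.217 (permutation p = 0.498, adjusted p = 0.58), and r was 0.528 without KO2 and KO1. Over the 3 chain genes r lay between -0.0392 and 0.17 and over the 6 supply genes between 0.424 and 0.879, with Tap1, Psmb9 and Psmb10 among the 6 not passing. Without KO2 and KO1 the ranges were 0.415 to 0.528 and 0.387 to 0.698, so that the chains lay within the range of the supply genes. With genotype means removed, r over all 12 tumors lay between 0.394 and 0.457 for the chains and between 0.730 and 0.869 for the supply genes. These values are a description with no p. No test compared these relations with each other.

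**Figure D5:**
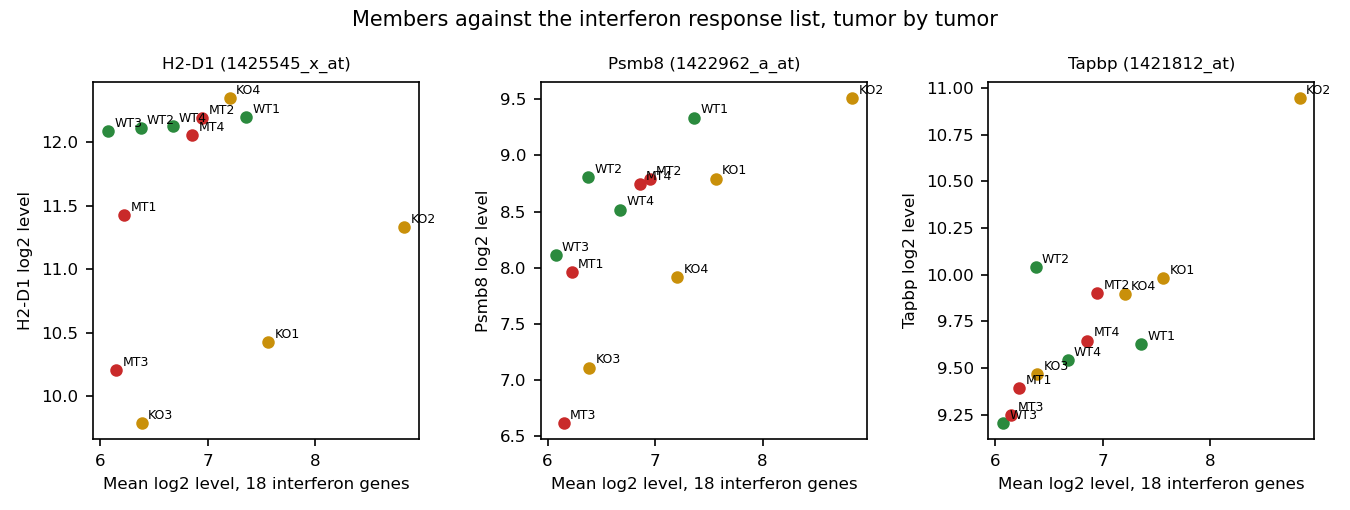
Log2 level of H2-D1, Psmb8 and Tapbp (y axes) against the mean log2 level of 18 interferon response genes (x axis), 1 labeled point per tumor. KO2, at 8.83 on the x axis, is the highest tumor for Psmb8 and Tapbp and lies below all WT tumors for H2-D1.

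Other genes of the pathway, counted together with class I-like heavy chains, were called about as often as all probe sets. In WT against KO 2 of 51 probe sets (3.92%) passed, against 4.57% of all. Of 27 probe sets of 10 other genes of peptide supply and loading, 1 passed in WT against KO: Psme3, a proteasome activator subunit, was 0.73 higher in WT (SE 0.13, adjusted p = 0.0170, limma) at 1438509_at. Its other probe sets differed by -0.18 and 0.46 and did not pass. None of 11 probe sets of the constitutive proteasome subunits passed in any comparison, with a median WT minus KO difference of -0.26. Of 13 probe sets of other class I and class I-like heavy chains, 1 passed, H2-Q10, at 0.38 higher in WT (SE 0.09, adjusted p = 0.0428). The median difference of the 13 was 0.39. Nothing on these lists passed in MT against KO or MT against WT. Over all probe sets the median WT minus KO difference was 0.02.

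Of the transcription factors of class I genes, 0 of 17 probe sets of 10 genes passed in any comparison. Irf1, an interferon-induced activator, was at 8.39 to 9.04 in WT, 8.97 to 9.64 in KO and 8.60 to 9.07 in MT tumors, with a WT minus KO difference of -0.40 (adjusted p = 0.212, limma). Nlrc5, the class I transactivator, has no probe set that names it alone. Of the interferon receptors and their kinases 0 of 12 passed, with a median difference of 0.03. Of the 22 probe sets of the interferon list 0 passed in limma, with 5 at an unadjusted p under 0.05 in WT against KO. Their median WT minus KO difference was -0.79, opposite in sign to that of the class I members, with a median SD among KO tumors of 1.19.

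Markers of other cells were compared because leukocytes carry much class I. All 16 T and NK cell, all 9 pan-leukocyte, all 18 B and plasma cell and all 11 class II probe sets had a higher mean in WT than in KO tumors, as did 13 of 14 of macrophages, the same direction as 23 of the 25 class I probe sets. For several of these lists the WT mean rests largely on WT1. Over 7 class II genes the mean level was 10.04 in WT1 and 7.31 to 8.30 in WT2 to WT4. The KO tumors were at 7.06 to 8.56. Over 5 pan-leukocyte genes it was 10.37 in WT1 and 7.76 to 8.31 in WT2 to WT4. The KO tumors were at 7.37 to 8.13. By both means WT2 to WT4 overlapped the KO tumors. Of the 16 T and NK cell probe sets 1 passed (6.25%, against 4.57% of all), Cd4, at 0.68 higher in WT than in KO (SE 0.14, adjusted p = 0.0282, limma). The mean level of these 13 genes was 5.53 to 6.85 in WT, 5.39 to 5.51 in KO and 5.44 to 5.54 in MT tumors. By this mean the lowest WT tumor lay above the highest KO tumor. Of 14 macrophage probe sets 2 (14.3%) passed in WT against KO: Cd68 at 0.91 higher in WT (adjusted p = 0.0483) and C1qb at 0.71 higher (adjusted p = 0.0199), the latter also 0.92 lower in MT than in WT (adjusted p = 0.0246). The mean level of 10 macrophage genes was 8.26 to 9.01 in WT, 8.08 to 8.63 in KO and 7.86 to 9.02 in MT tumors. None of 9 pan-leukocyte, 18 B and plasma cell or 11 class II probe sets passed in limma.

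WT1, with the highest lymphocyte markers, had the highest Tap1 (at 1416016_at), Psmb9 and Psmb10 of all tumors. It was the highest tumor at 5 of the 10 probe sets of the supply genes. Of the 15 probe sets of B2m and the heavy chains it was highest at 6, among them H2-D1 1450170_x_at. Its B2m was within the range of the other WT tumors. Psmb9 was correlated with the T and NK list mean with r = 0.694 (permutation p = 0.00669, adjusted p = 0.0354) and rho = 0.692 (permutation p = 0.0151, adjusted p = 0.0743), and r was 0.376 without WT1 and WT2. Tap1 gave r = 0.672 (permutation p = 0.0111, adjusted p = 0.0419) and rho = 0.678 (permutation p = 0.0194, adjusted p = 0.0836). Its r was 0.473 without the same tumors. For B2m, H2-K1 and H2-D1 r with this list was between 0.297 and 0.369, with adjusted permutation p-values of 0.28 or more for r and of 0.11 or more for rho. Against the macrophage list r was at most 0.544 for the 9 genes, with adjusted permutation p-values of 0.141 or more for r. Against the class II list Tap1, Psmb10, Psmb9 and Psmb8 gave r = 0.761, 0.701, 0.695 and 0.688. Their adjusted permutation p-values for r were 0.0292 to 0.0441. Without WT1 and MT3 these r were 0.442, 0.488, 0.223 and 0.474. For the remaining genes r with the class II list was at most 0.377, and no relation with it passed for rho. Of 7 endothelial probe sets all had a higher mean in WT and 2 passed: Pecam1 and Emcn were 1.05 and 0.72 higher in WT than in KO tumors (adjusted p = 0.0440 and 0.0443). Of 8 salivary secretory probe sets 5 had a higher mean in WT and 2 passed, Prpmp5 and Dcpp1, at 4.91 and 3.16 higher (adjusted p = 0.00675 and 0.0183, limma), while Pip at 1449212_at, at -1.57 (adjusted p = 0.103), and Aqp5, at -0.50 (adjusted p = 0.593), were lower on average and did not pass. None of 8 epithelial probe sets, all with a lower mean in WT, and none of 12 fibroblast probe sets passed. The part of these cell types and of the salivary program in the class I values was not tested.

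The genes whose levels most resembled the mean of the 9 members across the 12 tumors, after genotype means were removed, were Sdhaf1 (r = 0.948), Isg20 (0.932), Gpr65 (0.914), Dennd5a (0.908), Pycard (0.903) and Rbm42 (0.888), out of 12384 genes ranked. Isg20 is an interferon-induced exonuclease and Pycard the adaptor protein of inflammasomes. Pycard was at 9.37, 9.04, 8.82 and 8.24 in WT1 to WT4, at 8.41, 8.30, 6.90 and 8.12 in KO1 to KO4 and at 7.63, 8.41, 6.82 and 8.47 in MT1 to MT4. MT3 and KO3 were its lowest tumors. These correlations are the highest of many and are given as a description.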

How the data were processed

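RNA of 12 salivary tumors was hybridized to 1-color Affymetrix arrays, 1 array per tumor and 4 tumors per genotype. The deposited values are log2 expression levels that the authors made by RMA, per their methods. The submitters' processing notes also name MAS5, and no version of either is given in the sources used here. The values were used without further scaling. The table holds 22690 probe sets, 64 of them array controls that were not tested. In the platform annotation, 20380 of the 22626 tested probe sets name 1 gene symbol, 691 several and 1555 none, and no gene was named from a probe set with several. Tumors were grouped by the genotype in the labels.

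limma 3.58.1 in R 4.3.3 was fitted to all 12 arrays with genotype as the factor, so that all groups shared 9 residual degrees of freedom before moderation. It was preferred to the SAM of the methods because it gives an error for each probe set, and SAM (100 permutations) and the methods' t statistic were run as alternatives. Differences are on the log2 scale of RMA. The number of arrays limits the precision. On simulated data for WT against KO with 22626 probe sets, limma found 54 of 100 probe sets moved by a log2 value of 1 and 90 of 100 moved by 2, and made 7 false calls. The moved probe sets were drawn at random from the whole array, where the median SDs within a genotype were 0.22 to 0.25. The class I chains varied more, with median SDs of 1.10 in KO and 0.95 in MT, so these counts do not give the share that would be found among them. Correlations used 100000 permutations, two-sided. These were run in Python 3.11.15 (scipy 1.17.1, pandas 2.3.3, numpy 2.4.6), and plots were drawn with matplotlib 3.10.9. Promoter windows were read from a RefSeq table of GRCm38.p6 and not from the array files, which carry no coordinates.

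The members and all gene lists were chosen with earlier results of these data known. Named were every member with every probe set, up to 4 called genes of each other list per comparison by the smallest p, of each cell type list its highest and lowest called gene, Nlrc5 and Irf1 in any case (a further gene of the rule is not reported here), and the 6 other genes most like the members' mean. Outside this rule, Epcam, Bpifa2, Pip, Aqp5, Gbp3, Igtp, Ifit1 and uncalled probe sets of H2-Ea and Psme3 were named after their values were seen. Alternatives covered a filter on dim probe sets, centring, cyclic loess, moderation, array weights, blocks, thresholds, 1 probe set per gene, the samples in the fit and leaving out each tumor.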

Additional observations from a re-analysis of the deposited data

Results flagged for a closer look

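Within genotypes of 4 tumors, a tumor was singled out where its gap to the nearest other tumor, divided by the range of the 4, was above Dixon's critical value. Chance does this in about 1 in 20 groups, and 7 of the 75 groups tested (25 probe sets in 3 genotypes) were singled out. In 3 of them WT4 was the highest WT tumor, with ratios of 0.943 at H2-D1 1425614_x_at, 0.907 at H2-D1 1427651_x_at and 0.893 at H2-D1 1452544_x_at. At H2-D1 1452544_x_at KO1 was also the lowest KO tumor, at 5.47 against 5.75 to 5.78, with a ratio of 0.908. At H2-D1 1425614_x_at MT1 was the lowest MT tumor, at 5.29 against 5.43 to 5.45, with a ratio of 0.874. At Tap1 1448177_at MT2 was the highest MT tumor, at 5.78 against 5.72 to 5.73, with a ratio of 0.926. At Tap1 1449803_x_at KO1 was the lowest KO tumor, at 4.36 against 4.54 to 4.55, with a ratio of 0.927.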

How the results depend on the processing

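Of the 25 class I probe sets, 2 passed in WT against KO, and this count changed with most choices. It was 0 with the filter on dim probe sets (17 tested), with cyclic loess, at an adjusted p under 0.01, with 1 probe set per gene (9 tested), with only the 8 tumors compared and with the ordinary t statistic of the methods, also at an adjusted p under 0.1, a threshold added after seeing the data. It was 1 with the poly-A control level as a block, 4 at an adjusted p under 0.1 in limma and 6 with array weights, where 3280 of all probe sets passed in place of 1035. Leaving out 1 tumor gave 0 to 5. The count was 5 without WT4 (1360 of all) and 2 without KO4 (796 of all). It was 1 without WT2 (971 of all) or MT4 (1102 of all) and 0 without any of the other 8. In MT against KO the count was 0 under every alternative run. In MT against WT it was 0 except as follows. With array weights it was 6, where 4973 of all probe sets passed in place of 83. Without WT1 and WT4 together (added after seeing the data) it was 1, where 206 of all passed. Without 1 tumor it was 0 to 2, with 2 without WT4, where 578 of all passed. Over the 3 genotypes it was 0 except as follows. With array weights it was 5, where 5057 of all probe sets passed in place of 529. At an adjusted p under 0.1 it was 2 (1518 of all), and without WT1 and WT4 together 1 (216 of all). Without 1 tumor it was 0 to 3, with 3 without WT4 (895 of all) and 1 without KO4 (293 of all). The cause of these changes was not tested, beyond the fewer probe sets or tumors that an alternative itself uses.

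The labels number the tumors 1 to 4 in each genotype. Deviations of same-numbered tumors correlated at 0.00226 to 0.335, above 0.1 in 6 of 12 pairs, and the numbers were treated as names. With the replicate block the count in WT against KO was 0, in MT against KO 0, in MT against WT 0 and over the 3 genotypes 0.

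Single probe sets gave 626 alternative values in each comparison. No called difference turned its sign. The sign differed in 8 in WT against KO, 27 in MT against KO and 19 in MT against WT, among them B2m 1449289_a_at in MT against WT, at 0.33 with the poly-A block in place of -0.84. With 4 arrays a genotype, differences of the chains near 1 on the log2 scale had errors of 0.5 or more at most probe sets.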

Other observations

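Probe sets shared between class I genes belong to no single gene, and their values are given without a test. The probe set shared by H2-K1 and H2-D1, 1424948_x_at, was at 11.44, 11.23, 11.28 and 10.18 in WT1 to WT4, at 9.18, 9.83, 7.91 and 11.16 in KO1 to KO4 and at 10.28, 11.21, 9.19 and 10.80 in MT1 to MT4. KO3 was the lowest and KO4 the highest KO tumor. Of the 2 probe sets shared by H2-T23 and H2-T-ps, 1449556_at was at 10.87, 11.13, 9.89 and 9.97 in WT1 to WT4, at 10.97, 10.94, 9.99 and 10.23 in KO1 to KO4 and at 9.60, 10.38, 10.39 and 10.44 in MT1 to MT4. The genotypes overlapped there, and KO1 and KO2 lay above KO4. The other, 1419658_at, stayed between 4.25 and 4.96 in every tumor. A probe set shared by H2-D1, H2-Q2 and Gm38417, 1422348_at, was at 6.56, 7.21, 6.78 and 6.16 in WT1 to WT4. There KO1 to KO4 were at 5.97, 5.79, 5.77 and 6.05 and MT1 to MT4 at 5.80, 5.90, 5.66 and 5.97, all below the WT tumors.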
